A study of Mus musculus with 32 samples.

Results

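The gluconeogenic enzymes are described here through 4 genes, Pcx, Pck1, Fbp1 and G6pc, in the livers of aged mice after a fast. The members were all probe sets of the Affymetrix MG-U74Av2 array to which the platform annotation gives a single gene symbol that is one of these 4 names. That rule found 9 of the 12488 probe sets, for 4 of the 8252 genes so named on the array. Of these, 5 were ordinary probe sets (1 each for G6pc, Pck1 and Fbp1, and a pair for Pcx) and all 5 passed the filter on low values. The other 4 were Pcx control probe sets, which the array carries to compare the ends of long transcripts, and were analysed separately.

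RNA came from 32 male mice of the B6C3F1 hybrid strain, 1 array per mouse and 4 in each of 8 groups, all housed singly from 5 months of age, fasted for 48 hours and killed at 22 months. LTCR mice ate a restricted diet of 52.2 kcal per week from 5 months of age. CR8 mice were restricted late: from 20 months they had 77 kcal per week during the first 2 weeks, and 52.2 kcal per week in the 6 weeks that followed. The drug groups stayed on control diet and, from 20 months, had 1 of the following added for 8 weeks: metformin (MET), glipizide (GLIP), both of these drugs (GM), or rosiglitazone (ROS). SOY mice had a soy isoflavone extract over the same weeks. Control mice (CON) received 93 kcal per week of control diet. The restricted diet was enriched to keep protein, vitamin and mineral intake per body weight near that of controls, and doses of the drugs were not given. The long fast was common to all groups, CON included, so every level below is that of a fasted liver and no fed animals were compared.

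Gluconeogenesis makes glucose from lactate, glycerol and amino acids, and in a fasted animal the liver is its main site. Pyruvate carboxylase (Pcx) forms oxaloacetate in mitochondria, cytosolic phosphoenolpyruvate carboxykinase (Pck1) turns oxaloacetate into phosphoenolpyruvate, fructose bisphosphatase (Fbp1) bypasses phosphofructokinase, and the catalytic subunit of glucose-6-phosphatase (G6pc) releases free glucose in the endoplasmic reticulum. Transcription of Pck1 and G6pc is known to be raised by glucagon and glucocorticoids and lowered by insulin, whereas Fbp1 and Pcx are also controlled by metabolites acting on the enzymes. Metformin lowers blood glucose, glipizide stimulates insulin release, and rosiglitazone activates the nuclear receptor PPAR gamma.

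The promoters of G6pc and Pck1 are shown because these genes had the largest differences between groups. The sequences are from RefSeq on GRCm38.p6, each with 250 bases before and 50 bases from the annotated start, written 5′ to 3′. The G6pc promoter lies at chr11:101367466-101367765 on the plus strand and the Pck1 promoter at chr2:173152823-173153122 on the plus strand. Capitals mark exact matches, on either strand, to a fixed set of motifs.
G6pc: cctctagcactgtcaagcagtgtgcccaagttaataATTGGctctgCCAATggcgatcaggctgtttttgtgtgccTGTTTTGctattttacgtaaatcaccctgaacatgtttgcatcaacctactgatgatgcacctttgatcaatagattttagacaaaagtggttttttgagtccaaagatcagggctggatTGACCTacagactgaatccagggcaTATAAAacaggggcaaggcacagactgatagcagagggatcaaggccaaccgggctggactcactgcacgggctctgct
Pck1: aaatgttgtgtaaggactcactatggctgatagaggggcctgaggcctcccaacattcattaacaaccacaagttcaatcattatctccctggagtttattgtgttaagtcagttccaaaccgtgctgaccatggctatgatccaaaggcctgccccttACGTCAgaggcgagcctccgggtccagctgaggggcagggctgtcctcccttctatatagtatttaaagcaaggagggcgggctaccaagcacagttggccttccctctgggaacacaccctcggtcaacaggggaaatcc
The motifs searched were TGACGT, the core of the cAMP response element, which 7.51% of 32851 promoters of this length held, AGGTCA of nuclear receptors (16.3%), TGTTTAC of forkhead factors (3.65%), TGTTTTG of the insulin response unit bound by FOXO factors (6.28%), AGAACA of the glucocorticoid receptor (19.0%), CCAAT (37.4%) and TATAAA (13.6%). With the start at 0, G6pc held TGTTTTG at -174, AGGTCA on the minus strand at -54, TATAAA at -29, and CCAAT at -204 and, on the minus strand, at -214. Pck1 held TGACGT on the minus strand at -91 and none of the others. The single Fbp1 promoter in the table held 1 CCAAT match, and the pair of Pcx promoters held 3 and 1, the second overlapping an AGGTCA match on the minus strand. None of the motifs was shared by G6pc and Pck1 within these windows, and a match is a description of the letters and not a bound site.

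The arrays carried liver RNA: albumin (Alb), a hepatocyte product, was at least 31357 intensity units in every array, and the markers of kidney, another gluconeogenic organ, summed to between 231 and 470.4 over 7 genes, 1 of which passed the filter. Column medians lay between 145 and 170.05 units. Skeletal muscle transcripts were high in 5 arrays (CR8 1, CR8 2, ROS 4, SOY 3 and CON 3), where the 12 markers summed to between 8409.9 and 25889.5 units, against 2139.5 to 3622 in the other 27 arrays. Acta1, skeletal actin, ranged from 8.5 to 10461 over all arrays, Atp2a1, the muscle calcium pump, from 40.9 to 3671, and Pvalb, a muscle calcium-binding protein, from 1111 to 2413. The calls that changed without those 5 arrays are given below.

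Pck1 and G6pc, the entry step from oxaloacetate and the release of glucose, rose in LTCR livers, by 1.64-fold and 2.67-fold on mean intensity. On their ordinary probe sets Fbp1 and Pcx, the other irreversible steps, differed from CON by less than 1.2-fold and did not pass the test. The Pcx control probe sets were higher by 1.18-fold to 1.43-fold. In their separate fit the 3′ end and a middle stretch were called (limma adjusted p = 0.0481 and 0.0193). Of the 5 member probe sets, 2 were called higher and 0 lower in LTCR against CON, where 19.3% of all 7357 tested probe sets were called, 7.53% higher and 11.8% lower.

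Pck1 (gene ID 18534) lies at chr2:173153073-173159274 on GRCm38.p6. LTCR livers had 6590, 6931, 6175 and 7954 intensity units, against 4562, 4264, 3542 and 4519 in CON livers. Every LTCR array lay above every CON array, which was so for 9.13% of all tested probe sets. The means were 6912 ± 760.1 in LTCR and 4222 ± 472 in CON (SD, n = 4 each), a difference of 0.71 ± 0.14 on the log2(intensity + 27) scale (SE; 95% interval 0.41 to 1.00; limma adjusted p = 0.000742). The lowest LTCR value also exceeded the highest value of the other 7 groups, which was 5161 in MET 3. The share of all probe sets with LTCR above every other group was not counted. In whole liver, more cells of a type and more RNA per cell cannot be told apart.

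G6pc (gene ID 14377) lies at chr11:101367716-101377903. LTCR livers had 10351, 8084, 6813 and 7687 units, against 2648, 2609, 3273 and 3784 units in CON livers. The groups did not overlap, where 9.13% of all tested probe sets were higher in LTCR without overlap. The LTCR mean of 8234 ± 1508 compared with 3078 ± 559.9 in CON (SD, n = 4 each). The log2 difference was 1.41 ± 0.26 (SE; 95% interval 0.88 to 1.94; limma adjusted p = 0.000271), rank 201 by p among all tested probe sets. As for Pck1, the lowest LTCR array exceeded every array of the other 7 groups, the nearest being GM 1 at 6141, and the share of all probe sets was not counted.

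**Figure D1:**
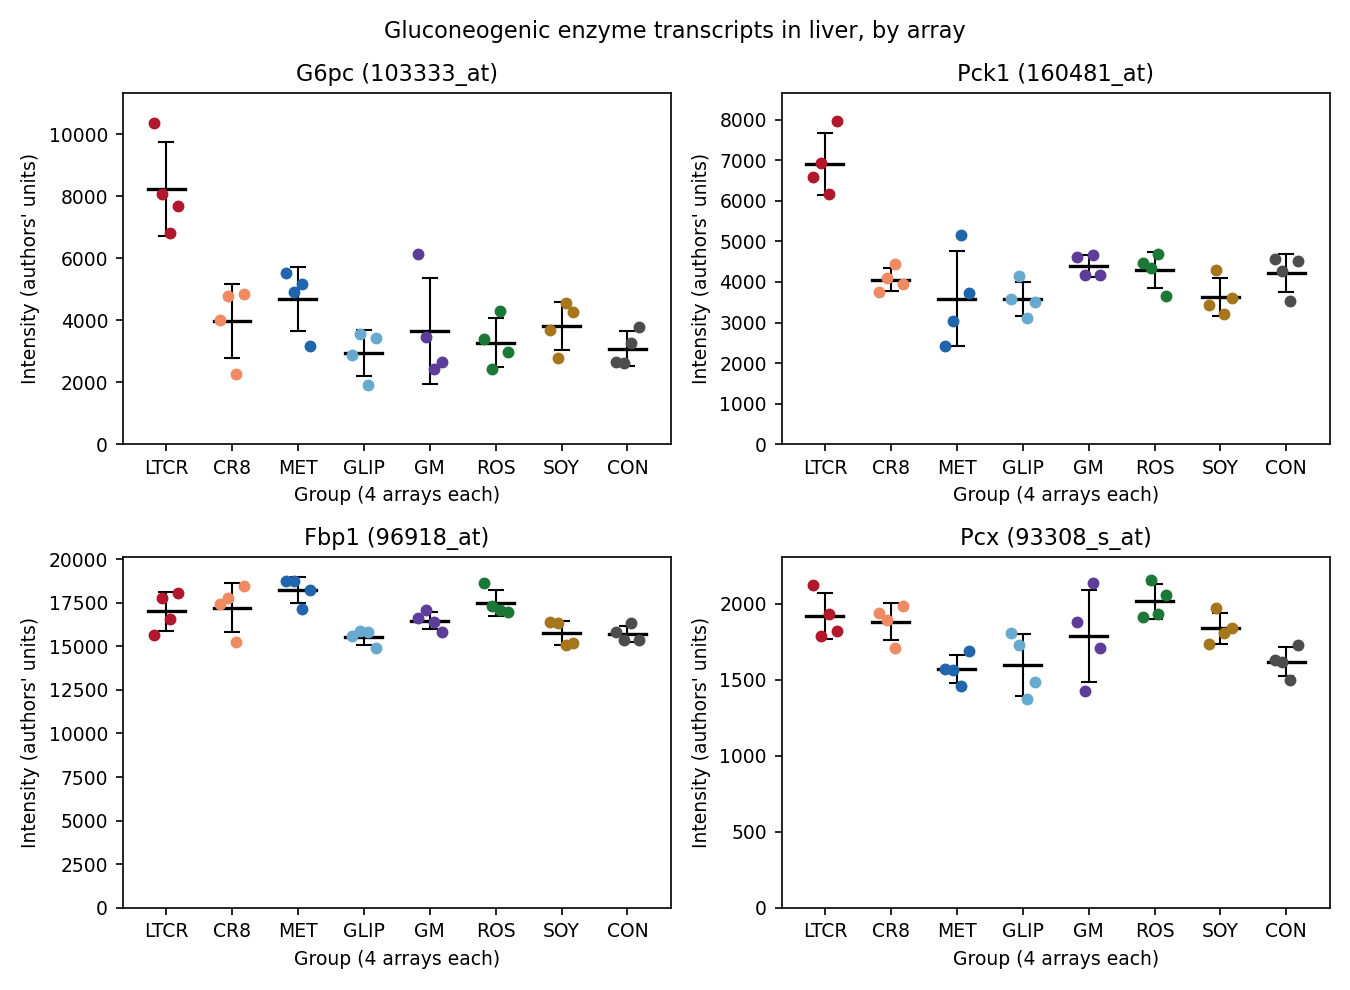
Intensity in the authors' units (linear axis from 0) of G6pc, Pck1, Fbp1 and the brighter Pcx probe set in each of the 32 arrays, by group; points are arrays, and bars are the group mean ± SD (n = 4). The 4 LTCR arrays lie above all 28 others for G6pc and Pck1, whereas the groups of Fbp1 and Pcx lie close together.

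Cell type markers were compared between LTCR and CON by their summed level and by their mean log2 level. The 10 measured of 11 markers of Kupffer cells and macrophages, the liver's phagocytes, were lower in LTCR by both: they summed to between 2264 and 3116 units in LTCR and between 3615 and 4641 in CON, with a mean log2 level of 7.88 in LTCR and 8.33 in CON. The 5 measured of 7 hepatocyte markers summed to between 110290.4 and 135342 in LTCR and between 93483 and 106737 in CON, but their mean log2 level was 13.90 in LTCR and 13.92 in CON, so the sum and the mean log2 level differed in direction. The adipocyte list (4 of 6 measured) had a mean log2 level of 9.34 in LTCR and 9.62 in CON, and 1 gene, Car3, a carbonic anhydrase also abundant in liver, made up most of its sum. The small intestine list (3 of 5 measured) had a mean of 7.36 in LTCR and 7.54 in CON, with its sum almost all from Fabp2, a fatty acid-binding protein. The part of these markers in the result was not tested. The kidney markers did overlap, with 423 to 467 in LTCR and 335 to 467 in CON, and Umod, a kidney tubule product, reached at most 40.5 in any array. Without the 5 arrays with muscle transcripts, the LTCR difference from CON was 1.45 ± 0.29 for G6pc (adjusted p = 0.00180) and 0.63 ± 0.16 for Pck1 (adjusted p = 0.00802).

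LTCR against CR8 sets restriction from 5 months beside restriction over the last 8 weeks. Pck1 and G6pc were higher in LTCR than in CR8 as well, the 2 calls among 5 member probe sets in a comparison in which 12% of probe sets were called. CR8 livers had 4005, 4776, 2280 and 4853 units of G6pc and 3748, 4095, 4437 and 3956 units of Pck1, all below the LTCR arrays (6.97% of all probe sets were higher in LTCR without overlap). The log2 difference of LTCR from CR8 was 1.09 ± 0.26 for G6pc (adjusted p = 0.00605) and 0.76 ± 0.14 for Pck1 (adjusted p = 0.000883). Without the muscle arrays, which include CR8 1 and CR8 2, they were 1.28 ± 0.33 and 0.71 ± 0.18 (adjusted p = 0.0263 and 0.0207). The 3′ to 5′ ratio of the Pcx control probe sets, given with those probe sets below, also differed between these groups. Both calls were kept with it as a covariate. Fbp1 differed by -0.02 (95% interval -0.14 to 0.10) and the brighter Pcx probe set by 0.03 (-0.17 to 0.22).

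CR8 against CON gave no member call, in a comparison with 0.544% of probe sets called. The G6pc difference was 0.32 (95% interval -0.20 to 0.85), so a rise of up to 0.85 on the log2 scale is within its error. Pck1 was at -0.05 (-0.35 to 0.24), with all 4 CR8 arrays within the range of the CON arrays. Fbp1 was at 0.13 ± 0.06 (adjusted p = 0.395) and Pcx at 0.21 ± 0.10 (adjusted p = 0.376), which missed the threshold.

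Against each of the drug and isoflavone groups, the LTCR differences of G6pc lay between 0.82 ± 0.26 (against MET, limma adjusted p = 0.0388) and 1.50 ± 0.26 (against GLIP, adjusted p = 0.000156). Those of Pck1 lay between 0.64 ± 0.14 (against GM, adjusted p = 0.00204) and 0.99 ± 0.14 (against MET, adjusted p = 4.43e-05). All probe sets called made up 10.4% against MET, 19.1% against GLIP, 22.5% against GM, 16.3% against ROS and 24.5% against SOY. The G6pc call against MET was lost without the muscle arrays (adjusted p = 0.0596), with quantile normalization (adjusted p = 0.0564), and without any one of LTCR 1, LTCR 2, LTCR 4, MET 1, MET 2 and MET 4 (adjusted p between 0.0518 and 0.153).

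**Figure D2:**
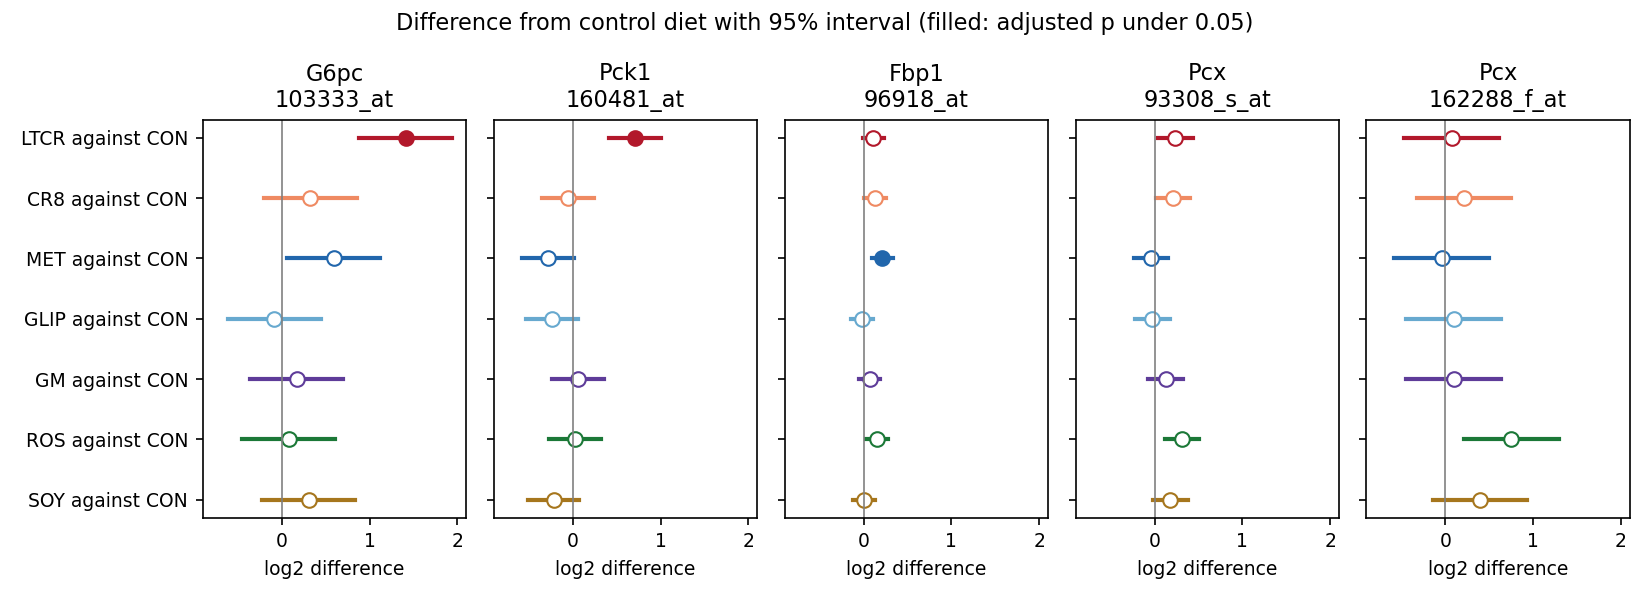
Difference of each of 7 groups from CON on the log2(intensity + 27) scale for the 5 tested probe sets; points are limma estimates, lines are 95% intervals, and filled points passed an adjusted p of 0.05. The filled points are LTCR for G6pc (1.41) and Pck1 (0.71), and MET for Fbp1 (0.21).

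Metformin was the drug with a member call. Fbp1 (gene ID 14121, chr13:62864753-62888298) rose to 18740.5, 18728, 17161 and 18226 units in MET livers, against 15834, 15332, 16323 and 15351 units in CON livers. The groups did not overlap, yet the size was small, with means of 18214 ± 742 and 15710 ± 469.8 (SD, n = 4 each), 1.16-fold apart. The log2 difference was 0.21 ± 0.06 (95% interval 0.09 to 0.34; limma adjusted p = 0.0404), the single call among 5 member probe sets where 4.17% of all probe sets were called and 3.94% were higher without overlap. Hepatocyte markers summed to between 111602 and 122984 units in MET and between 93483 and 106737 in CON, with a mean log2 level of 13.95 in MET and 13.92 in CON, and their part was not tested. The call was lost with quantile normalization (0.09 ± 0.07, adjusted p = 0.520), without the muscle arrays (adjusted p = 0.0914), with no filter, no trend, the 3′ to 5′ covariate described below or the groups alone (adjusted p between 0.0723 and 0.152), and without any one of 7 of the 8 arrays compared, with adjusted p up to 0.106. The exception was MET 3, without which adjusted p was 0.0383.

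G6pc in MET livers was 5513, 4902, 5176 and 3185 units, so that 3 of 4 arrays lay above the highest CON array and the other among the CON values. The log2 difference was 0.59 ± 0.26 (95% interval 0.06 to 1.12; adjusted p = 0.213) and did not pass. Pck1 in MET livers was 2421, 3043, 5161 and 3728 units, the widest spread of any group for this gene, with an SD of 1177 against 271 to 760.1 elsewhere. Its difference from CON was -0.28 ± 0.14 (adjusted p = 0.302), and without MET 3 it was -0.47 ± 0.13 (adjusted p = 0.0381). G6pc and Pck1 thus had estimates of opposite sign under metformin, neither past the threshold with all arrays.

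Fbp1 was also called higher in MET against GLIP (0.23 ± 0.06, adjusted p = 0.0291) and against SOY (0.21 ± 0.06, adjusted p = 0.0420), in comparisons with 3.82% and 4.31% of probe sets called. GLIP livers had 15575, 15884, 15825 and 14880.1 units and SOY livers 16388, 16332, 15089 and 15195 units, all below the lowest MET array. The share of all probe sets without overlap was not counted for these pairs. Both calls were lost with quantile normalization (adjusted p = 0.484 against GLIP and 0.152 against SOY). The 3′ to 5′ ratio of the Pcx control probe sets, a measure of RNA integrity, did not overlap between MET (1.58 to 1.82) and GLIP (2.24 to 3.04) or SOY (2.29 to 3.56). The ratios of the control genes Gapdh, Actb and Tfrc overlapped between MET and GLIP. Between MET and SOY those of Actb and Tfrc overlapped, and that of Gapdh did not (0.768 to 0.854 and 0.878 to 0.969). Both calls were lost with the Pcx ratio as a covariate (adjusted p = 0.0998 and 0.269). They were lost as well without the muscle arrays, with no filter, with no trend and in fits of the groups alone. They were also lost without any one of 5 of the 8 arrays in MET against GLIP (MET 1, 2 and 4, GLIP 3 and 4) and 7 of the 8 in MET against SOY (all but MET 3). These are 3 of 28 pairs of groups, and the Fbp1 group means spanned a ratio of 1.17 in all.

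GM livers set the drug pair against each of its drugs. Of the members, 0 were called in GM against CON, GM against MET or GM against GLIP, in which 1.55%, 2.62% and 0% of probe sets were called. For Pck1, GM livers had 4607, 4161, 4657 and 4167 units, all above the GLIP livers at 3571, 4139, 3106 and 3516 units. That difference was 0.30 ± 0.14 (adjusted p = 0.539), with 1.41% of all probe sets higher in GM without overlap. GM against GLIP had 0 probe sets past the adjusted threshold in limma and 675 at an unadjusted p under 0.05. GM against MET gave 0.35 ± 0.14 for Pck1 (adjusted p = 0.199) and 0.54 ± 0.13 without MET 3 (adjusted p = 0.0180). Fbp1 was lower in every GM array, at 16597, 17065, 16401 and 15838 units, than in every MET array, a difference of -0.14 ± 0.06 (adjusted p = 0.197), where 4.25% of all probe sets were lower without overlap.

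The interaction of the drugs, which asks whether the effect of metformin differed in the presence of glipizide, was 0.58 ± 0.20 for Pck1 (95% interval 0.16 to 1.00; unadjusted p = 0.00804, limma adjusted p = 0.327). Of all probe sets, 0.0408% were called in this contrast and 0 of the 5 members. Without MET 3 the Pck1 interaction was 0.77 ± 0.17 (adjusted p = 0.0420), so the call turned on 1 array. The G6pc interaction was -0.34 (95% interval -1.09 to 0.41). G6pc in GM livers was 6141, 3462, 2416 and 2656 units, and without the highest array, GM 1, the difference from CON was -0.11 in place of 0.17.

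Glipizide alone gave no member call against CON, where 0.136% of probe sets were called. G6pc in GLIP livers was 2869, 3556, 1926 and 3430 units, a difference of -0.08 (95% interval -0.61 to 0.44). Pck1 was at -0.24 (-0.53 to 0.06), Fbp1 at -0.02 (-0.14 to 0.11) and Pcx at -0.02 (-0.22 to 0.17). Isoflavones likewise gave no call, in a comparison with 0% of probe sets called: limma found 0 at the adjusted threshold and 601 at an unadjusted p under 0.05. In SOY livers G6pc was 3692, 2797, 4545 and 4275 units, a difference of 0.31 (-0.22 to 0.83), and Pck1 was 3423, 4288, 3203 and 3598 units, a difference of -0.22 (-0.51 to 0.08).

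Rosiglitazone gave no member call, against 0.136% of probe sets called. G6pc in ROS livers was 3410, 2443, 4296 and 2975 units, a difference from CON of 0.08 (95% interval -0.45 to 0.61). Pck1 was 4477, 4356, 4683 and 3658 units, a difference of 0.03 (-0.27 to 0.32). Fbp1, at 18598, 17335, 17062 and 16937 units, lay above every CON array, with a difference of 0.15 ± 0.06 (adjusted p = 0.471). Not overlapping and higher were 2.26% of all probe sets in this comparison.

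On its ordinary probe sets, Pcx had its highest group mean in ROS livers. The gene (ID 18563, chr19:4510472-4621752) had a brighter and a dimmer ordinary probe set. The brighter gave 1916, 2159, 1933 and 2058 units in ROS livers, against 1633, 1615, 1499 and 1733 units in CON livers. These arrays did not overlap, where 2.26% of all probe sets were higher without overlap. The difference was 0.31 ± 0.10 (95% interval 0.12 to 0.51; limma adjusted p = 0.252), which did not pass the threshold. LTCR livers, at 2127, 1788, 1935 and 1824 units, also lay above all CON arrays, with a difference of 0.24 ± 0.10 (adjusted p = 0.0794) where 9.13% of all probe sets were higher without overlap. SOY livers, at 1735, 1976, 1808 and 1840.2 units, did so as well (0.18 ± 0.10, adjusted p = 0.648), where 2.49% were.

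On the brighter probe set MET livers had the lowest Pcx mean, with 1574, 1563, 1458 and 1690.3 units. MET against ROS was the single called pair of 28 for the ordinary Pcx probe sets (-0.35 ± 0.10, limma adjusted p = 0.0329), in a comparison with 3.72% of probe sets called. It was lost with scaling to equal medians (-0.26, adjusted p = 0.190) and without the muscle arrays (adjusted p = 0.115). It was lost too when any of 7 of the 8 arrays compared was left out, with adjusted p up to 0.0976. Control probe set means in MET and ROS were 4189 and 5127 at the 3′ end, but 2439 and 2453 at the 5′ end. At the middle stretches they were 2330 and 2368, and 3375 and 3646. The 3′ to 5′ ratio of these control probe sets did not overlap between MET (1.58 to 1.82) and ROS (1.99 to 2.23), and its part was not tested.

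The dimmer Pcx probe set carries a suffix that marks probes shared within a gene family, and its group means lay between 269.5 and 484 units. Its values in ROS livers were 364, 642, 464 and 465 units, against 415, 294, 230 and 189.7 units in CON livers, which overlap. The difference was 0.75 ± 0.26 (adjusted p = 0.364), and no pair of groups was called for this probe set. In LTCR it was 269, 194, 353 and 362 units, a difference from CON of 0.07 (95% interval -0.47 to 0.61), so that the pair of Pcx probe sets differed in their estimates there.

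The 4 Pcx control probe sets read the 3′ end, the 5′ end and a pair of middle stretches of the transcript. They were tested in a second fit with control probe sets kept, over 7391 probe sets, chosen after the data were seen. The 3′ control probe set gave 5482, 4944, 4713 and 4990 units in LTCR livers, against 3935, 4165, 4303 and 4629 units in CON livers. It was called higher in LTCR by 0.24 ± 0.09 (adjusted p = 0.0481), the estimate of the brighter ordinary probe set too, and within groups the pair correlated at r = 0.74 over the 32 arrays, as readings of 1 gene in the same RNA. In ROS livers it gave 4938, 5241, 5160 and 5167 units, a difference from CON of 0.27 ± 0.09 (adjusted p = 0.273).

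In LTCR against CON the other control probe sets also had positive differences: one of the middle stretches was called higher (0.53 ± 0.16, adjusted p = 0.0193), and the other (0.44 ± 0.16, adjusted p = 0.0513) and the 5′ one (0.41 ± 0.18, adjusted p = 0.114) did not pass. The order of group means differed between control probe sets, with CR8 highest at the 3′ end (5137 units, against 5127 in ROS) and LTCR highest at the 5′ end and at both middle stretches. At the 5′ end MET, at 2439, was above CON, at 1901.

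The 3′ and 5′ ends differed in how LTCR compared with CR8. The 5′ control probe set gave 2518, 2273, 2376 and 2691 units in LTCR livers, against 1958, 1504, 937 and 1529 units in CR8 livers, and was called higher in LTCR by 0.77 ± 0.18 (adjusted p = 0.00635). For the 3′ control probe set the same comparison gave -0.02 ± 0.09. The ratio of 3′ to 5′ signal, a usual measure of how intact the RNA is, lay between 1.85 and 2.18 in LTCR, 2.60 and 4.65 in CR8, 1.58 and 1.82 in MET, 2.24 and 3.04 in GLIP, 2.65 and 3.70 in GM, 1.99 and 2.23 in ROS, 2.29 and 3.56 in SOY, and 1.63 and 3.42 in CON. LTCR and CR8 did not overlap in this ratio, whereas LTCR lay within the range of CON. In the ratios of the control genes Gapdh, Actb and Tfrc, LTCR and CR8 did overlap. For Gapdh they lay between 0.845 and 0.878 in LTCR and 0.848 and 0.992 in CR8. For Actb the ranges were 1.43 to 1.87 and 1.49 to 2.35, and for Tfrc 1.48 to 2.57 and 1.63 to 7.88. The part of RNA quality in the 5′ difference was not tested. With the Pcx ratio as a covariate, also added after the data were seen, G6pc differed by 1.46 ± 0.26 and Pck1 by 0.70 ± 0.15 between LTCR and CON (adjusted p = 0.000242 and 0.00132). Between LTCR and CR8 they differed by 1.33 ± 0.34 and 0.71 ± 0.19 (adjusted p = 0.0294 and 0.0380).

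**Figure D3:**
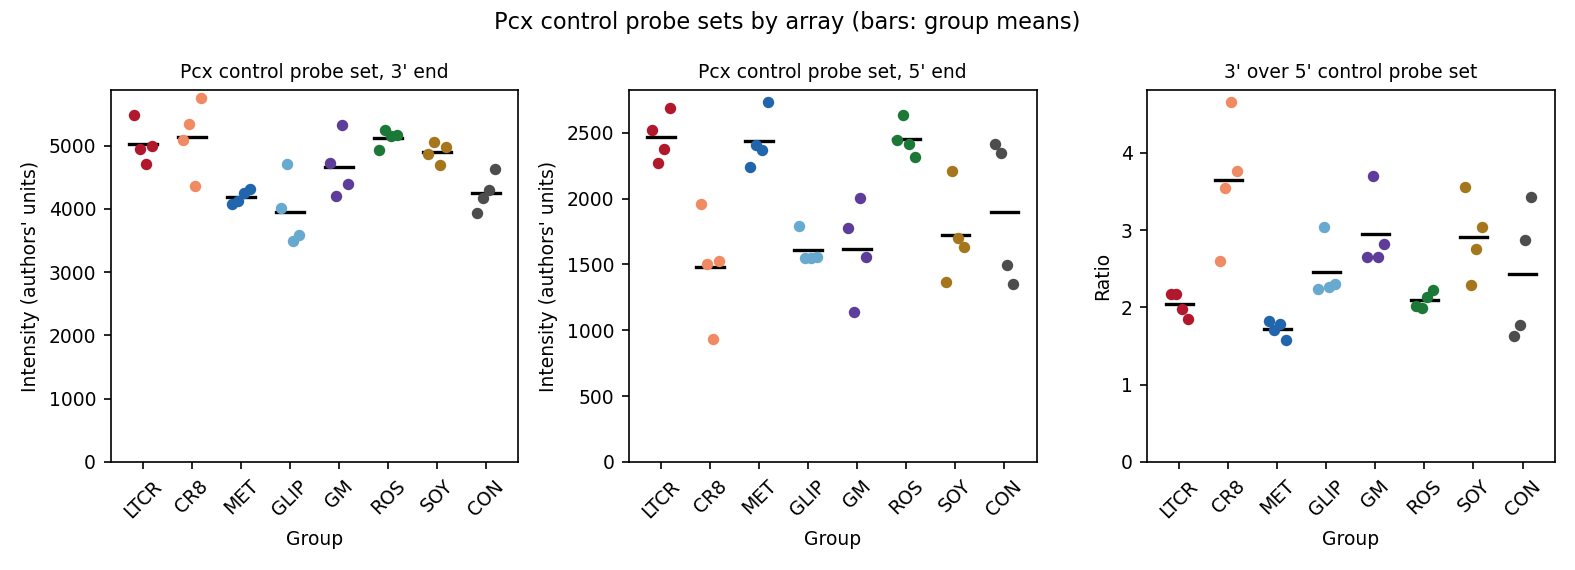
Intensity of the 3′ and 5′ Pcx control probe sets and their ratio in each array, by group (linear axes from 0; points are arrays, bars are group means). The ratio is highest in CR8 (2.60 to 4.65) and lowest in MET (1.58 to 1.82), and the 4 CON arrays spread from 1.63 to 3.42.

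Over all 8 groups at once, the moderated F test called 4 of the 5 member probe sets, where 27% of all probe sets were called. The adjusted p was 0.000187 for Pck1, 0.00142 for G6pc, 0.0229 for the brighter Pcx probe set, 0.0249 for Fbp1 and 0.189 for the dimmer Pcx probe set. The Fbp1 call was lost with quantile normalization (adjusted p = 0.240), and those of both Fbp1 and Pcx were lost without the muscle arrays (0.0820 and 0.120). The highest group mean exceeded the lowest by 2.80 times for G6pc, 1.93 for Pck1, 1.28 for the brighter Pcx probe set and 1.17 for Fbp1. For the Pcx control probe sets, in their separate fit, the adjusted F p was 0.00302 at the 3′ end and 0.00320 at the 5′ end. At the middle stretches it was 0.0756 and 0.0404.

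Ordered by mean log2 level, G6pc ran LTCR, MET, CR8, SOY, GM, ROS, CON and GLIP. Pck1 ran LTCR, GM, ROS, CON, CR8, SOY, GLIP and MET. For both, LTCR differed from the group next below it, and no other neighbours in the order passed the test, with adjusted p of at least 0.644 for G6pc and 0.654 for Pck1. MET, the runner-up for G6pc, was thus the lowest group for Pck1, although neither place was separated from its neighbours outside LTCR. Fbp1 ran MET, ROS, CR8, LTCR, GM, SOY, CON and GLIP, and Pcx ran ROS, LTCR, CR8, SOY, GM, CON, GLIP and MET, with no neighbours past the threshold.

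Within groups, no relation of G6pc with Pck1 passed a test. LTCR stands apart for both, so a correlation over all arrays was not used, and each array was taken as its deviation from its group mean. Over the 32 arrays Pearson's r was -0.05 (permutation p = 0.807, adjusted p = 0.807) and Spearman's rho was -0.05 (permutation p = 0.794, adjusted p = 0.833), and without the 2 arrays farthest from the median r was -0.04. All 6 pairs among the 4 genes, with the brighter Pcx probe set, had r between -0.15 and 0.16 and the same adjusted p of 0.807.

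**Figure D4:**
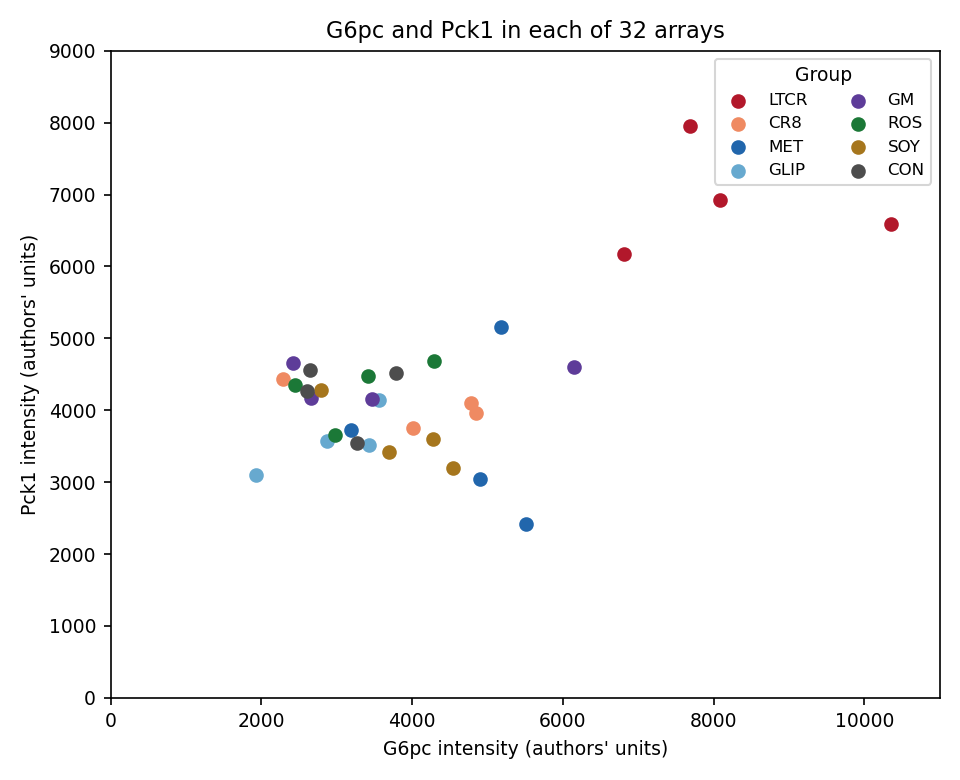
Pck1 against G6pc intensity (authors' units, linear axes from 0) in each of the 32 arrays, coloured by group. The 4 LTCR arrays stand apart at the upper right, from 6813 for G6pc and from 6175 for Pck1, and the other 28 arrays lie below both values.

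Genes of the surrounding pathway were counted in 7 lists that hold 80 genes, of which 49 had a tested probe set with a single symbol. In LTCR against CON, 11 of the 49 were called higher and 5 lower, or 32.7% against 19.3% of all probe sets, with a median log2 difference of 0.17 against 0.004 over all. In LTCR against CR8, 8 were higher and 5 lower (26.5% against 12%), and 5 in all without the muscle arrays. That count also fell to 7 without CR8 2 and to 8 without LTCR 1 or LTCR 4, and it was 7 with the 3′ to 5′ covariate. In MET against CON, 5 were higher and 0 lower (10.2% against 4.17%). In GM against CON 1 was higher, and 0 of 49 were called in CR8, GLIP, ROS or SOY against CON, which at unadjusted p under 0.05 had between 601 and 851 of all probe sets. The insulin-regulated factor Foxo1 had no probe set with a single symbol, and the coactivator Ppargc1a, at a mean of 48.8 units, fell below the filter.

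Of the 2 genes of glucose-6-phosphate transport and glucose release, 1 rose and 1 fell in LTCR, where 19.3% of all probe sets were called. No single list was tested against that share. Slc37a4, which carries glucose 6-phosphate to glucose-6-phosphatase, rose to 3075 ± 583 units, against 1810.05 ± 165 in CON (SD, n = 4 each), a log2 difference of 0.74 ± 0.15 (adjusted p = 0.000661). Slc2a2, the hepatocyte glucose transporter, fell to 4551 ± 514 units, against 6006 ± 219 in CON (-0.40 ± 0.10, adjusted p = 0.00302). In MET livers Slc37a4 was 2572 ± 167 units, above every CON array, where 3.94% of all probe sets were higher without overlap. The difference was 0.50 ± 0.15 (limma adjusted p = 0.0504). That is close to the threshold but does not pass it.

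Of 7 tested genes of substrate entry, 2 rose and 0 fell in LTCR, or 28.6% against 19.3% of all probe sets. They were Mdh2 (0.37 ± 0.08), mitochondrial malate dehydrogenase, and Got2 (0.36 ± 0.08), mitochondrial aspartate aminotransferase, which both handle oxaloacetate. Of 3 enzymes of the reversible steps, 2 rose and 0 fell, Pgk1 (0.51 ± 0.11), phosphoglycerate kinase, and Tpi1 (0.25 ± 0.06), triose phosphate isomerase. These 4 are named as the members behind small counts and were chosen after their values were seen. Of 7 tested genes of the opposing glycolytic steps and pyruvate dehydrogenase, 0 were called in LTCR. Pklr, liver pyruvate kinase, was at 0.27 ± 0.13 (adjusted p = 0.162) and Pdk4, a kinase that inhibits pyruvate dehydrogenase, at 0.59 ± 0.41 (adjusted p = 0.347).

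Of 14 tested transcriptional regulators, 3 rose and 1 fell in LTCR, or 28.6% against 19.3% of all probe sets. Hnf4a, a nuclear receptor that activates both Pck1 and G6pc, rose to 3506 ± 441 units, against 1812 ± 539 in CON (0.98 ± 0.18, limma adjusted p = 0.000271). Esrra, an orphan nuclear receptor, rose by 0.68 ± 0.13, although its other probe set gave 0.28 (adjusted p = 0.179), and Cebpa, a liver C/EBP factor chosen after its value was seen, rose by 0.39 ± 0.10. The gene that fell was Srebf1, known for its activation of lipid synthesis (-0.90 ± 0.13, adjusted p = 1.64e-05). Cebpb was at 0.29 ± 0.20 (adjusted p = 0.341).

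Of 11 tested genes of hormone signalling, 3 rose and 2 fell in LTCR, or 45.5% against 19.3% of all probe sets. Fkbp5, a glucocorticoid-induced chaperone, rose by 1.18 ± 0.16, Igfbp1, a secreted protein that insulin represses, by 1.14 ± 0.35, and Tat, tyrosine aminotransferase, by 1.04 ± 0.15. The Igfbp1 probe set, like the dimmer one of Pcx, carries the suffix that marks probes shared within a gene family. Tat reached 17226 ± 3318 units in LTCR, against 8250.1 ± 820 in CON (adjusted p = 1.51e-05). Prkar1a, the regulatory subunit that restrains protein kinase A, fell to 1046 ± 29.9 units, against 1583 ± 108 in CON (-0.58 ± 0.08, adjusted p = 4.77e-06). The other gene that fell was Pik3r1 (-0.48 ± 0.17), a subunit of phosphoinositide kinase, also named after its value was seen. Of 5 glycogen genes, Ugp2, which makes UDP-glucose, fell by 0.78 on the log2 scale (SE 0.10, adjusted p = 3.85e-06) and 0 rose.

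Against CR8, Hnf4a by 1.11 ± 0.18, Igfbp1 by 1.26 ± 0.35, Tat by 0.53 ± 0.15, Fkbp5 by 0.63 ± 0.16, Tpi1 by 0.20 ± 0.06, Slc2a2 by -0.58 ± 0.10, Srebf1 by -0.79 ± 0.13, Prkar1a by -0.46 ± 0.08 and Ugp2 by -0.64 ± 0.10 passed the threshold as well. Slc37a4 did not (0.36 ± 0.15, adjusted p = 0.113). The 2 comparisons share the LTCR arrays, so they are not independent of each other. The genes named are not all of the 8 higher and 5 lower called against CR8. Of the 49, 5 in all were called without the muscle arrays and 7 with the 3′ to 5′ covariate. Some of the calls named here were thus lost in those settings.

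**Figure D5:**
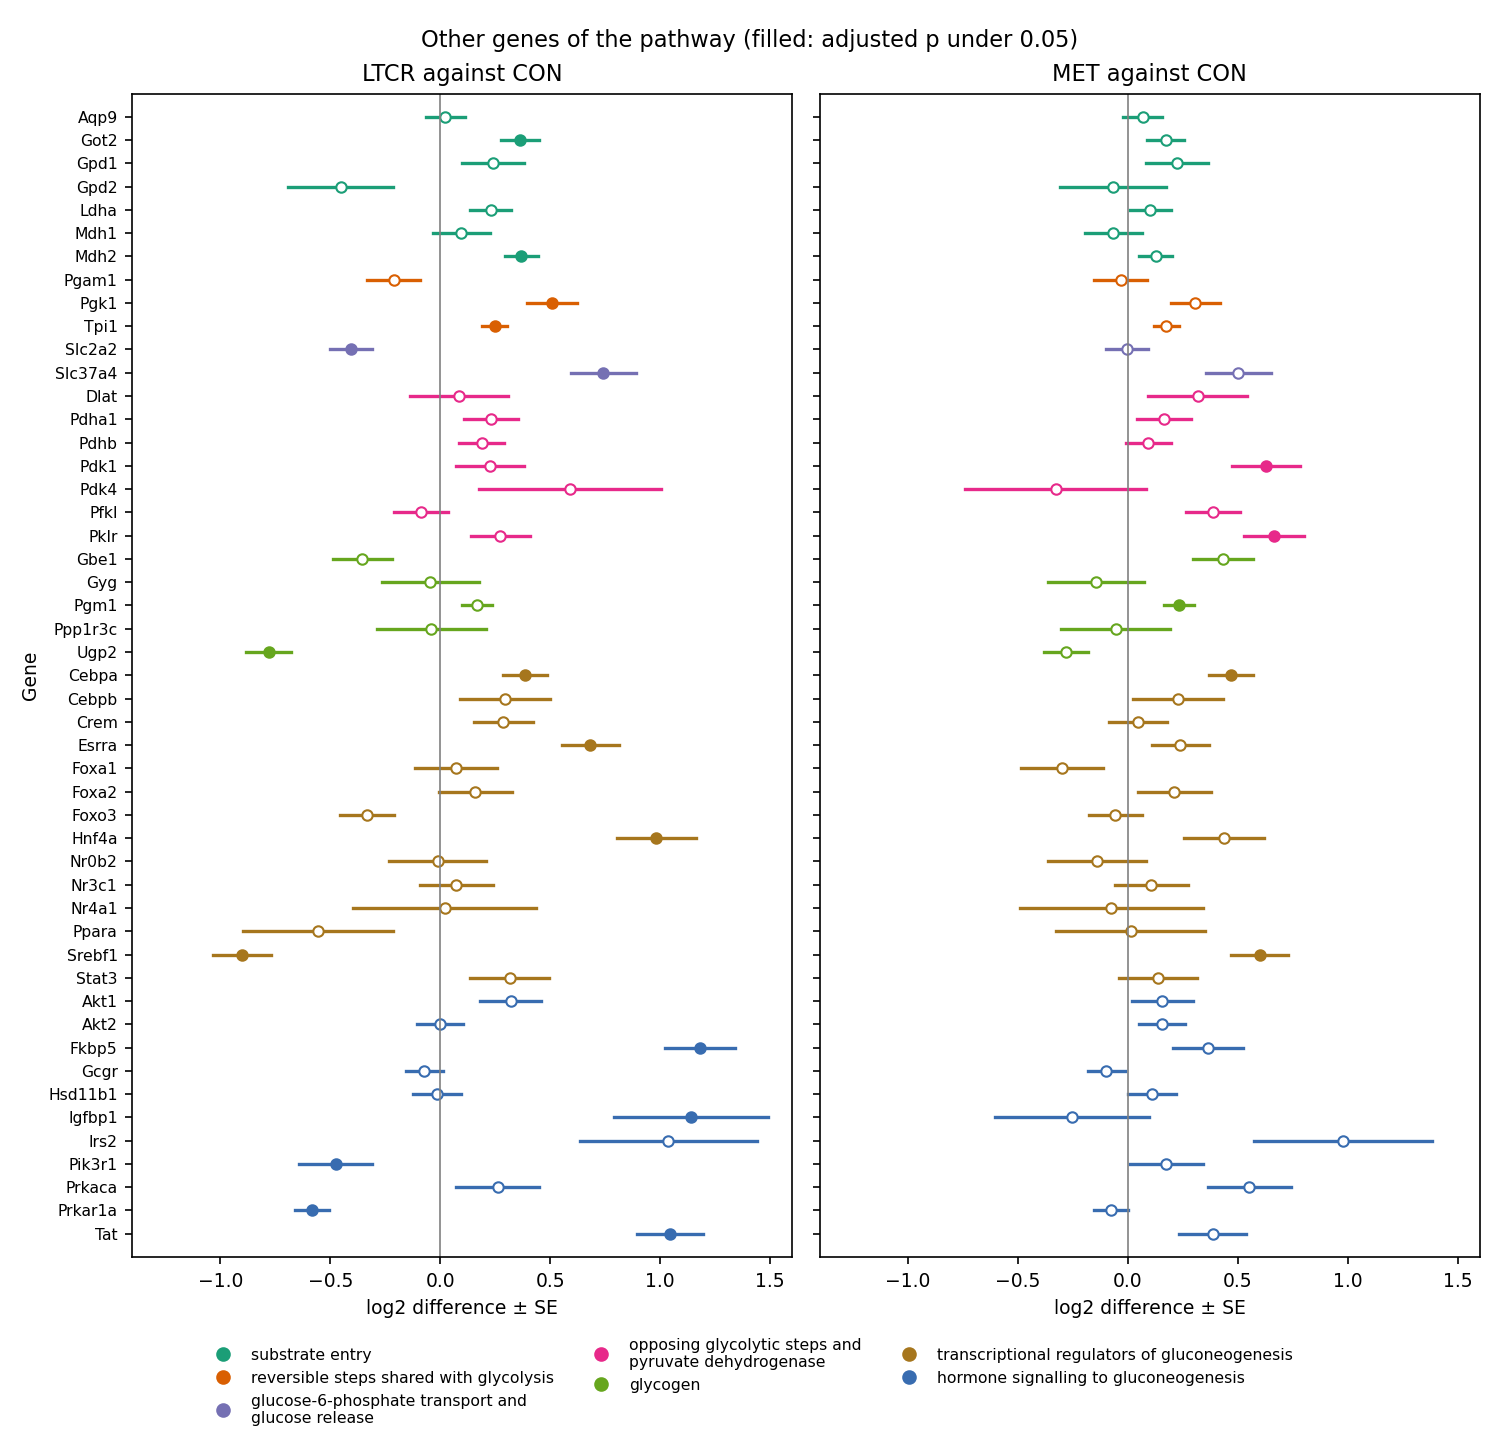
Log2 difference ± SE of the 49 other pathway genes in LTCR against CON (left) and MET against CON (right), coloured by list; filled points passed an adjusted p of 0.05 over all tested probe sets. On the left 11 genes are filled above 0 and 5 below, and on the right 5 above and 0 below.

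In MET livers 5 pathway genes were called, from lists that by their making do not include the members. Pklr rose by 0.66 ± 0.13 (limma adjusted p = 0.00654), and its other probe set by 1.49 (adjusted p = 0.000494). Pdk1, a kinase of pyruvate dehydrogenase, rose by 0.63 ± 0.15, Srebf1 by 0.60 ± 0.13, Cebpa by 0.47 ± 0.10 and Pgm1, a phosphoglucomutase, by 0.23 ± 0.07. Pklr runs glycolysis forward and Srebf1 activates lipid synthesis. A fit to the MET and CON arrays alone called 0 of these 5, with 33 calls over all probe sets in place of 307, and 3 of the 49 were called without MET 1, without MET 4 or with the 3′ to 5′ covariate.

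In GM against MET, Srebf1 (-0.93 ± 0.13), Pdk1 (-0.68 ± 0.15), Gbe1 (-0.54 ± 0.14), a glycogen branching enzyme, Pklr (-0.49 ± 0.13) and Pgm1 (-0.25 ± 0.07) were lower, and Gcgr, the glucagon receptor, was higher (0.32 ± 0.08). These 6 of 49 are 12.2%, against 2.62% of all probe sets. The Pcx 3′ to 5′ ratio did not overlap between GM (2.65 to 3.70) and MET (1.58 to 1.82). With it as a covariate 1 of the 49 was called, and 26 of all probe sets in place of 193. The count was 2 or 3 without GM 2, GM 3, GM 4, MET 2 or MET 4, to 3 without the muscle arrays and to 0 in a fit of GM and MET alone. In the interaction Srebf1 was called (-1.04 ± 0.18, adjusted p = 0.0116), but not without the muscle arrays. The other Pklr probe set, outside the count of 49, was also called in the interaction (-1.71, limma adjusted p = 0.0116). It was lower in GM against MET as well (-1.05, adjusted p = 0.00709). Without the muscle arrays no probe set was called in the interaction. In GM against CON the called gene was Irs2 (1.87 ± 0.40, adjusted p = 0.0191), an insulin receptor substrate, at 253 ± 132 units in GM and 43.5 ± 20.2 in CON, near the added value of 27. That call was lost without CON 4, GM 1 or GM 4, without the muscle arrays and in a fit of GM and CON alone, where 0 of 49 were called, and scaling to equal medians called 9.

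The probe sets most like each member were found by Pearson's r over the 32 arrays among 6591 tested probe sets of other genes (6590 for Pcx), which share the groups and arrays. For G6pc they were Ndufb11 (0.83), Cyp2c38 (0.80), Ndufv1 (0.78), Ndufb5 (0.78) and Ndel1 (0.77), of which 3 encode subunits of respiratory complex I. After removal of group means the r of these 5 lay between 0.38 (Ndel1) and 0.67 (Ndufb5). For Pck1 they were Klf9 (0.77), a glucocorticoid-responsive factor, Hsd17b10 (0.75), St3gal5 (0.74), Slc6a9 (0.73) and Ahcy (0.73). Within groups their r lay between 0.29 (Hsd17b10) and 0.65 (Klf9). For Fbp1 they were Pdk1 (0.67), Tkt (0.66), Chchd7 (0.65), Ndufb8 (0.64) and Pgm1 (0.62), and for the brighter Pcx probe set Dct (0.61), Zfp612 (0.60), Mocos (0.59), Hrg (0.56) and Fgf1 (0.56). Within groups the r lay between 0.21 (Pgm1) and 0.54 (Ndufb8) for Fbp1, and between 0.37 (Fgf1) and 0.60 (Dct) for Pcx. For the dimmer Pcx probe set they were Ccni (0.62), Oxt (0.57), Tcf7l2 (0.55), Sema5b (0.54) and Sgce (0.54), with r within groups between 0.40 (Oxt) and 0.65 (Ccni). No gene was named for more than 1 member probe set.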

How the data were processed

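The authors deposited 1 linear intensity per probe set and array in 1 table, already scaled: the mean of each column without its top and bottom 2% lay between 500.4 and 500.5. No source used here names the software, detection calls or scan dates, and the number of arrays limits the precision. From the deposited intensity values, log2(intensity + 27) was computed, 27 being their 20th percentile. The 66 control probe sets were left out, and probe sets were tested where their mean log2 value exceeded that of the 40th percentile of intensity, 94.2, which left 7357 of 12422. The scale of this mean was not settled beforehand, and the log scale follows an earlier analysis of these data.

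A single limma model (version 3.58.1, R 4.3.3, lmFit and eBayes with trend) covered the 8 groups with 24 residual degrees of freedom and 4.59 prior ones, with Benjamini-Hochberg adjustment over all tested probe sets at 0.05. There were 11 comparisons, a moderated F test over all groups, and all 28 pairs of groups for the order of levels. The 7 comparisons with CON share its 4 arrays. Errors are SDs over arrays for intensities and SEs for log2 differences. The fit was tested on simulated data. Within-group relations used 100000 permutations (Python 3.11.15, numpy 2.4.6, scipy 1.17.1), and figures used matplotlib 3.10.9.

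Gene names came from the platform annotation, and a pathway gene was represented by its tested probe set with the highest mean. Members, lists, motifs and tests were chosen with earlier results of these data known. The members were named throughout and 11 pathway genes could be named in any comparison, with up to 8 called pathway genes with the smallest p and the 5 probe sets most like each member; exceptions are stated. Mice were separate animals, per the labels. Alternatives were quantile normalization, equal medians, added values of 1 or 94.2, no filter or the 60th percentile, no trend, the groups compared alone, the replicate number as a block, each array left out and the 5 arrays with muscle transcripts left out.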

Additional observations from a re-analysis of the deposited data

Results flagged for a closer look

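Of 72 sets of 4 arrays (9 member probe sets in 8 groups), 1 held an array far from the other 3. The 5′ Pcx control probe set gave 1793 units in GLIP 1, against 1558, 1550.3 and 1548 units in the other GLIP arrays, a gap of 0.959 of the whole range, past the 95% critical value of Dixon's test. Chance alone passes that critical value in about 1 of 20 sets, and 72 sets were examined. The spread of the other 3 GLIP arrays was narrow for this probe set, and its 8 groups together ran from 937 to 2731 units.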

How the results depend on the processing

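The rises of G6pc and Pck1 in LTCR against CON and against CR8 kept their calls in all 12 alternatives and with any 1 array left out. For LTCR against CON, G6pc lay between 1.32 and 1.46 (1.30 to 1.52 with an array left out, adjusted p up to 0.00194) and Pck1 between 0.63 and 0.74 (0.63 to 0.76). For LTCR against CR8, G6pc lay between 1.02 and 1.33 (0.84 to 1.20, adjusted p up to 0.0328) and Pck1 between 0.71 and 0.76 (0.69 to 0.81). Over the members, in the settings other than leaving out an array, 795 values kept direction and call, 33 lost a call and 18, none of them called, changed sign. With an array left out, 663 kept both, 34 lost a call, 44 changed sign and 3, all for Pck1 without MET 3, gained a call. Except where a value's own construction shows it, the cause was not tested.

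Calls were lost as follows. Fbp1 in MET against CON was 0.093 with quantile normalization, 0.21 with no filter, no trend or the compared groups alone, 0.23 without muscle arrays and 0.20 with the 3′ to 5′ covariate, and 0.20 to 0.24 with an array left out. Its adjusted F p was 0.240 with quantile normalization, 0.0699 with no filter, 0.0580 with no trend, 0.0820 without muscle arrays, 0.0570 with the covariate, and 0.00566 to 0.0517 with an array left out. That of Pcx was 0.120 without muscle arrays. G6pc in LTCR against MET was 0.77 with quantile normalization, 0.78 with equal medians, 0.82 with no filter or without muscle arrays, 0.75 with the covariate, and 0.65 to 0.91 with an array left out. Pcx in MET against ROS was -0.26 with equal medians, -0.34 without muscle arrays, -0.35 for the groups alone, and -0.39 to -0.32 with an array left out. Fbp1 in MET against GLIP was 0.10 with quantile normalization, 0.23 with no filter, no trend, without muscle arrays or for the groups alone, 0.21 with the covariate, and 0.21 to 0.26 with an array left out. Fbp1 in MET against SOY was 0.17 with quantile normalization or equal medians, 0.21 with no filter, no trend or the groups alone, 0.19 without muscle arrays, 0.18 with the covariate, and 0.19 to 0.24 with an array left out.

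Values near 0 changed sign. With quantile normalization, Pck1 in GM against CON was -0.0059, the dimmer Pcx probe set 0.026 in MET against CON and 0.074 in GM against GLIP, and Fbp1 -0.048, -0.0031 and -0.075 in LTCR, GM and SOY against CON and -0.00067 in GM against GLIP. With equal medians, Pck1 in CR8 against CON was 0.0050, Pcx in MET against CON 0.025 (dimmer) and 0.033 (brighter), the dimmer in GM against GLIP 0.12, and Fbp1 in GLIP against CON 0.0028. Equal medians moved the median of all probe sets by 0.13 in GM and 0.11 in SOY against CON and by 0.12 in GM against GLIP. Without muscle arrays, Pck1 in GM against CON was -0.018, the dimmer Pcx -0.017 in CR8 against CON and 0.019 in LTCR against CR8, and Fbp1 0.0029 in GLIP against CON and 0.018 in LTCR against CR8. With 94.2 added, the dimmer Pcx in GM against GLIP was 0.013.

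With an array left out, G6pc ranged from -0.19 to 0.10 in GLIP, -0.11 to 0.33 in GM and -0.060 to 0.21 in ROS against CON, and -0.028 to 0.42 in GM against GLIP. Pck1 ranged from -0.47 to -0.11 in MET, -0.018 to 0.10 in GM and -0.056 to 0.10 in ROS against CON, 0.18 to 0.54 in GM against MET and 0.41 to 0.77 in the interaction. The dimmer Pcx ranged from -0.080 to 0.26 in LTCR, -0.20 to 0.15 in MET, -0.059 to 0.28 in GLIP and -0.13 to 0.33 in GM against CON, -0.27 to 0.028 in LTCR against CR8, -0.084 to 0.38 in GM against MET, -0.22 to 0.24 in GM against GLIP and -0.18 to 0.28 in the interaction. The brighter ranged from -0.085 to 0.045 in GLIP against CON and -0.024 to 0.058 in LTCR against CR8. Fbp1 ranged from -0.027 to 0.0051 in GLIP and -0.016 to 0.023 in SOY against CON, and -0.076 to 0.022 in LTCR against CR8.

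Counts of called probe sets moved most. CR8 against CON, 40, became 12 with the covariate, 16 for the groups alone and 11 to 68 with an array left out. MET against CON, 307, became 95 without muscle arrays, 166 with the covariate, 33 for the groups alone and 140 to 234. GLIP against CON, 10, became 6 with equal medians or no filter, 4 with the replicate block, 5 with no trend, 2 without muscle arrays and 1 to 11. GM against CON, 114, became 427 with equal medians, 57 with no filter, 33 without muscle arrays or with the covariate, 4 for the groups alone and 28 to 112. ROS against CON, 10, became 5 for the groups alone and 4 to 12, and SOY against CON, 0, became 0 to 1. LTCR against CR8, 882, became 423 without muscle arrays, 224 with the covariate, 488 for the groups alone and 572 to 949. GM against MET, 193, became 26 with the covariate, 0 for the groups alone and 94 to 226, and GM against GLIP, 0, became 1 with equal medians and 0 to 2. The interaction, 3, became 12 with quantile normalization, 1 with equal medians, 10 with 94.2 added, 8 with the filter at the 60th percentile, 6 with the replicate block, 0 without muscle arrays, with the covariate or for the groups alone, and 3 to 23.

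Of the 49 pathway genes, 1 was called in CR8 against CON for the groups alone. MET against CON, 5, became 9 with equal medians, 3 with the covariate, 0 for the groups alone and 3 to 5 with an array left out. GM against CON, 1, became 9 with equal medians, 0 without muscle arrays or for the groups alone, and 0 to 3. LTCR against CR8, 13, became 5 without muscle arrays, 7 with the covariate and 7 to 15. GM against MET, 6, became 3 with no filter, no trend or without muscle arrays, 1 with the covariate, 0 for the groups alone and 2 to 5. The interaction, 1, became 0 with equal medians, without muscle arrays, with the covariate or for the groups alone, and 1 to 2.

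Replicate numbers did not pair the arrays: deviations of same-numbered arrays correlated between -0.23 and 0.24 (median -0.0063) and those of other arrays between -0.23 and 0.32 (median -0.0010). With the replicate block no member call changed (G6pc in LTCR against CON adjusted p = 0.000393, Pck1 0.00139, Fbp1 in MET against CON 0.0453). The covariate was not applied to Pcx, whose own probe sets make the ratio. The arrays with muscle transcripts were left out by the muscle markers and not by a member's value, and the covariate and the fit with control probe sets were chosen after seeing the data.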
